A study of Mus musculus with 18 samples.

Results

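The genes described here are 42 endothelial and angiogenesis genes, chosen by symbol from the 24054 genes of the RNA-Seq tables for their roles in building and lining blood vessels and lymphatics. All 42 symbols were found. They comprised 9 secreted ligands, 5 VEGF receptors and neuropilins, 2 angiopoietin receptors, 10 endothelial surface and secreted markers, 4 endothelial transcription factors, 4 sprouting, Notch and apelin receptor genes, 2 hypoxia-inducible factors, 3 pericyte markers and 3 lymphatic markers. Their mRNA was measured in the hypothalamus, pituitary and thyroid of 3 WT mice (mice 1, 2 and 43) and 3 mice homozygous for K146Q (mice 60, 62 and 83), which carry a whole-body knock-in that replaces lysine by glutamine at a sumoylation site of the thyroid hormone receptor THRB. All 6 were untreated males aged 3 months on the C57BL/Ntac strain, and the 18 libraries formed 6 groups of 3. The question was how the ligands compared with the vessel markers in each gland of the mutant.

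New vessels grow when cells secrete VEGF ligands, which act on tyrosine kinase receptors and neuropilin coreceptors of endothelial cells. Angiopoietins act on the receptor Tek (Tie2), where Angpt1 stabilizes vessels and Angpt2 is made by endothelial cells that remodel. The thyroid and the anterior pituitary are endocrine glands with a dense bed of fenestrated capillaries, while most brain capillaries form a tight barrier.

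Values are normalized CPM, reads divided by the scaled library size, and each mean is given ± SD with n = 3 mice. Total reads per library were between 14902330 and 21230050, at which 3 reads correspond to 0.133 to 0.190 CPM. Log2 fold changes were fitted by limma to log2(CPM + 0.5), which understates the change of low genes, and a gene was called at a Benjamini-Hochberg adjusted p under 0.05 over all genes tested in that tissue. Thyroglobulin (Tg), the thyroid's hormone precursor, stood at 293439 to 357296 CPM in the WT thyroid and at 83869 to 130421 in the K146Q thyroid, against 119.9 to 169.7 CPM in the other tissues, and pituitary Tshb, which encodes the TSH beta chain, at 235 to 593 CPM in WT and 5600 to 8183 in K146Q mice. In bulk tissue, fewer cells of a type and less RNA per cell cannot be told apart.

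In the K146Q thyroid, 24 of the 42 genes were called, 22 higher and 2 lower, where 37.8% of all 15200 genes tested were called (19.7% higher and 18.1% lower). The median log2 fold change was 0.54 over the 42 genes and -0.025 over all genes. The 6 largest rises were those of the transcription factor Sox17, the lymphatic and epithelial glycoprotein Pdpn, the ligands Angpt2, Pgf and Apln, and the receptor Flt4. Both falls, Vegfb and Prox1, lay beside them. All 3 K146Q mice lay above all 3 WT mice for 25 of the 42 genes and below them for 3, against 26.6% and 25.7% of all genes. In the pituitary 6 genes were called, and in the hypothalamus none of the 40 tested. When library totals were recomputed without the 10 highest genes, the split over all thyroid genes moved from 2992 higher and 2747 lower to 2502 and 3629, and that of the 42 genes from 22 and 2 to 20 and 3.

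**Figure D1:**
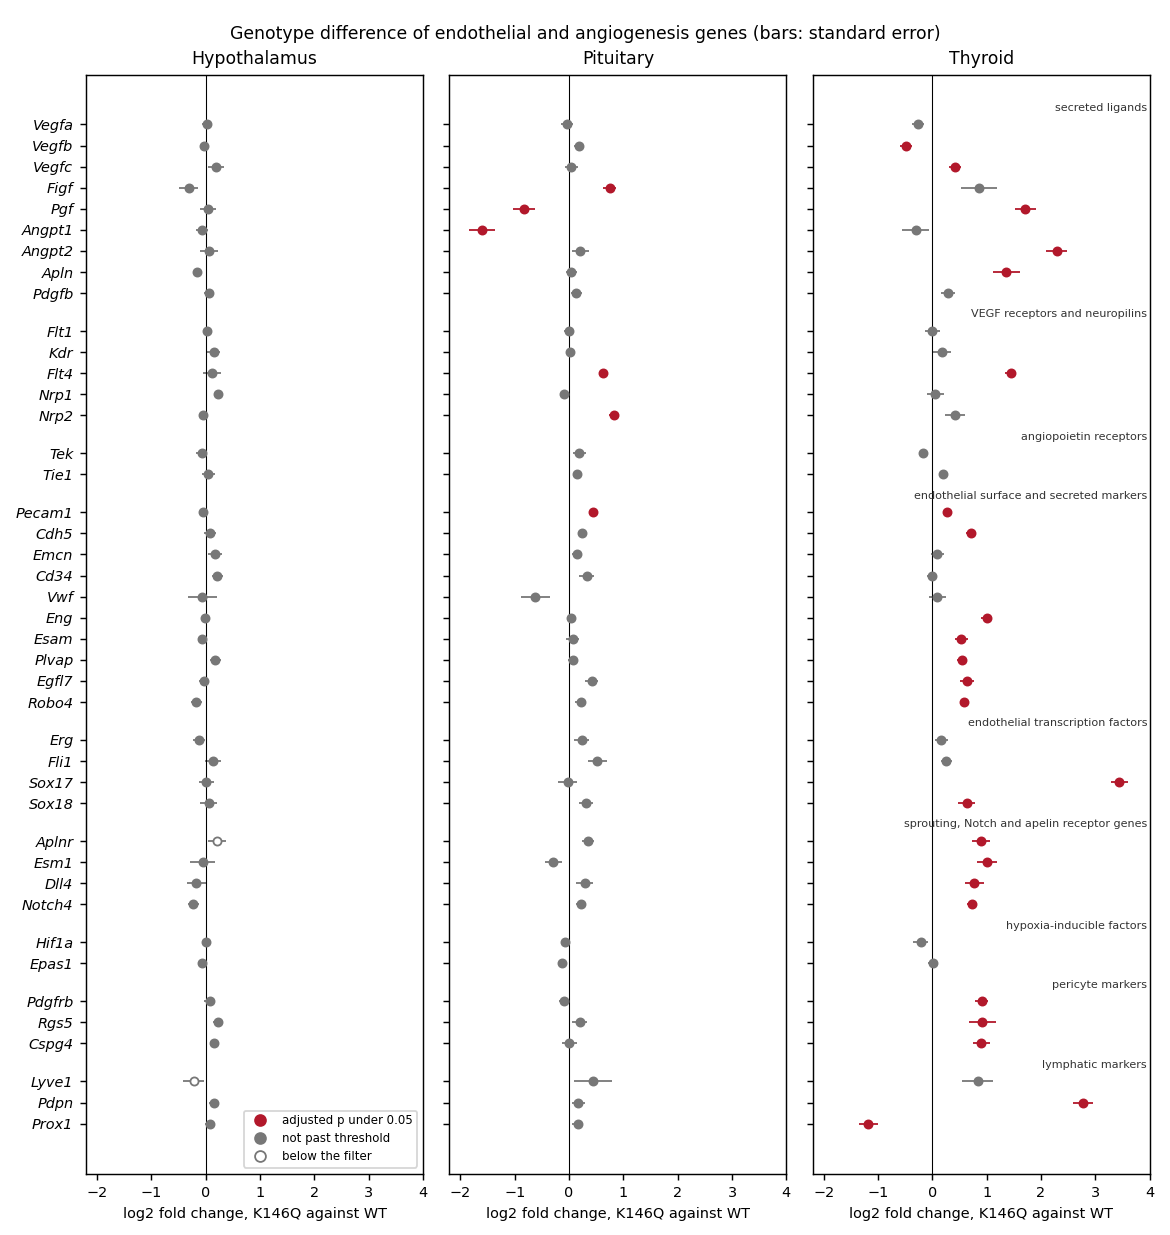
Log2 fold change of K146Q against WT (x axis) for the 42 genes (y axis, by role) in the hypothalamus, pituitary and thyroid, with bars for the standard error of the limma fit. Red points mark genes called, 24 in the thyroid and 6 in the pituitary, gray points those that did not pass, and open points the 2 hypothalamus genes below the filter on low values.

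The start regions of 3 of the genes that rose most, Pdpn, Pgf and Flt4, are printed to show the sequence at the head of these transcription units. They run from 250 bases before to 50 bases after the start site (RefSeq, GRCm38.p6), 5′ to 3′ on the gene's own strand. Capitals mark matches to ACGTG, the core that hypoxia-inducible factors bind, or AGGTCA, the half-site of thyroid hormone receptors.
Pdpn, chr4:143299515-143299814, minus strand: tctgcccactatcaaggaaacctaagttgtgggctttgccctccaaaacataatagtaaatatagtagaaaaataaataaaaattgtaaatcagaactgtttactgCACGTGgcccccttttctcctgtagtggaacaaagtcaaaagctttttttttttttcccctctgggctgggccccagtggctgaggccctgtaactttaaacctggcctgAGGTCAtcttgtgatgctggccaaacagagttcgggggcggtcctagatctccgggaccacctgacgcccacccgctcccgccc
Pgf, chr12:85177264-85177563, minus strand: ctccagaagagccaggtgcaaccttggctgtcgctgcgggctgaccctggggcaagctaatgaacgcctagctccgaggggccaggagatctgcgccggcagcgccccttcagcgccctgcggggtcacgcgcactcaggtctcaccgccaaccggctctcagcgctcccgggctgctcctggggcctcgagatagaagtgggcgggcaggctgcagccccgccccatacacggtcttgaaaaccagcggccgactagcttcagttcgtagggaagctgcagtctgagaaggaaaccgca
Flt4, chr11:49609429-49609728, plus strand: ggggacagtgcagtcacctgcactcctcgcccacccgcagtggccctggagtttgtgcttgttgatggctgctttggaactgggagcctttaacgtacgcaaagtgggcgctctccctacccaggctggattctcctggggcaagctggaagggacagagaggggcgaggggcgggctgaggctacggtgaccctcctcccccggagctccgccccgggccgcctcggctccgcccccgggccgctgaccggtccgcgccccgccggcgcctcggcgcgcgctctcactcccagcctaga

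The Pdpn window held CACGTG, 2 overlapping matches to ACGTG on opposite strands from 144 and 143 bases before the start, and AGGTCA from 34 bases before it. The Pgf and Flt4 windows held no match. A RefSeq start region was at hand for 27 of the 42 genes, 34 regions in all. On either strand, AGGTCA was found in 8 of these 34 regions (23.5%) and in 16.3% of all 32851 start regions, ACGTG in 3 (8.82%) against 19.6%, the cAMP response element TGACGTCA in 1 (2.94%, Flt1) against 1.79%, and the ETS motif CCGGAAG in 0 against 8.86%. The motifs ACGTG and TGACGTCA share the letters ACGT, and the Flt1 region with TGACGTCA held no ACGTG. A match describes these letters and is not a binding site.

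Among the 9 secreted ligands of the thyroid, 4 rose, 1 fell and 4 did not pass the test. Angpt2, the angiopoietin of remodelling vessels, measured 4.8, 5.505 and 3.37 CPM in WT mice 1, 2 and 43, and in K146Q mice 60, 62 and 83 it measured 20.97, 27.2 and 23.4 CPM. The groups were far apart, and the fitted change was 2.28 ± 0.19 (SE, adjusted p = 1.65e-04). Pgf, placental growth factor, which binds Flt1 but not Kdr, rose from 17.4, 24.5 and 19.4 CPM to 71.7, 81.7 and 51.6. The groups did not overlap, and the fitted change was 1.71 ± 0.19 on the log2 scale (SE, adjusted p = 5.48e-04). Apln, the peptide ligand of Aplnr and a product of endothelial tip cells, went from 7.14, 4.87 and 8.30 CPM to 15.02, 15.04 and 24.7 (log2 fold change 1.36 ± 0.25 SE, adjusted p = 0.00488), with mouse 83 well above the other mutants. Vegfc, the lymphatic growth factor that binds Flt4, was at 10.4, 9.93 and 11.6 CPM in WT and 13.5, 15.1 and 14.4 in K146Q mice. This rise of 0.42 ± 0.12 on the log2 scale (SE, adjusted p = 0.025) was small, and it did not pass without WT mouse 1 or 2 or K146Q mouse 62 or 83, where the fold change was 0.37 to 0.41.

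Vegfa, the principal ligand of Kdr, was the most abundant ligand in the thyroid and was not called. It measured 677, 686 and 656 CPM in WT and 497, 593 and 602 in K146Q mice, so that every mutant lay below every control, with a log2 fold change of -0.26 ± 0.11 (SE, adjusted p = 0.11). The difference was called with quantile normalization (log2 fold change -0.53, adjusted p = 0.013) and with totals without the 10 highest genes (-0.36, adjusted p = 0.039). Vegfb, a ligand of Flt1, fell from 67.3, 84.9 and 70.5 CPM to 56.8, 53.6 and 48.5 (log2 fold change -0.48 ± 0.11 SE, adjusted p = 0.0122). Figf, the older symbol of Vegfd, was low and variable, with 1.71, 1.27 and 3.67 CPM in WT and 5.30, 3.76 and 3.40 in K146Q mice, and the groups overlapped (log2 fold change 0.86, adjusted p = 0.078). Without WT mouse 43 the difference was called (1.22, adjusted p = 0.010). Angpt1 was at 4.67, 2.53 and 3.25 CPM in WT and 2.83, 2.00 and 3.22 in K146Q mice, also with overlap (log2 fold change -0.31, adjusted p = 0.37). Pdgfb, which recruits pericytes, had 60.5, 63.6 and 46.7 against 63.8, 71.3 and 72.2 CPM. Its groups were barely apart (log2 fold change 0.29, adjusted p = 0.11).

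Per kilobase of annotated exon, the WT thyroid ligands were ordered Vegfa (157 ± 3.55 CPM per kb), Vegfb (46.2 ± 5.86), Pdgfb (13.7), Pgf (7.04), Vegfc (4.34), Apln (2.15), Angpt2, Figf and Angpt1 (0.669). In the mutant the level of Vegfa was 131.6 ± 13.6 and that of Vegfb 33.0 ± 2.58 CPM per kb. Pgf, at 23.55 ± 5.28, had a higher mean than Pdgfb, at 16.6 ± 1.10, and Angpt2, at 6.47 ± 0.852, than Vegfc, at 5.86 ± 0.322. The ranges of the last pair overlap within their SD.

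Of the 5 VEGF receptors and neuropilins in the thyroid, only Flt4 was called. Flt4 (VEGFR3), the receptor for Vegfc and Vegfd on lymphatic and fenestrated endothelium, rose from 32.6, 35.2 and 28.8 CPM to 78.7, 91.4 and 94.3 (log2 fold change 1.44 ± 0.11 SE, adjusted p = 1.15e-04). Flt1 (VEGFR1) was at 242, 227 and 186 CPM in WT and 204, 196 and 254 in K146Q mice, and the WT and mutant means were 219 ± 28.8 and 218 ± 31.6. Kdr (VEGFR2), the main signaling receptor for Vegfa, was at 211, 259.6 and 163 against 222, 211 and 271 CPM (log2 fold change 0.17 ± 0.18 SE, adjusted p = 0.49). The neuropilins Nrp1 and Nrp2, coreceptors for VEGF and semaphorins, also overlapped between the genotypes. Nrp1 had 167, 202 and 129.9 against 173, 164 and 174 CPM, and Nrp2 79.4, 68.2 and 49.0 against 83.3, 75.5 and 101 (log2 fold changes 0.056 and 0.42, adjusted p = 0.80 and 0.11). Nrp2 passed without WT mouse 1 (log2 fold change 0.57, adjusted p = 0.046). Neither angiopoietin receptor was called. Tek was at 48.1 to 53.8 CPM in WT and 42.4 to 49.1 in K146Q mice, and Tie1 at 89.7 to 96.4 and 101 to 112. Tie1 passed in 1 of 6 limma fits with a mouse left out (adjusted p = 0.048).

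**Figure D2:**
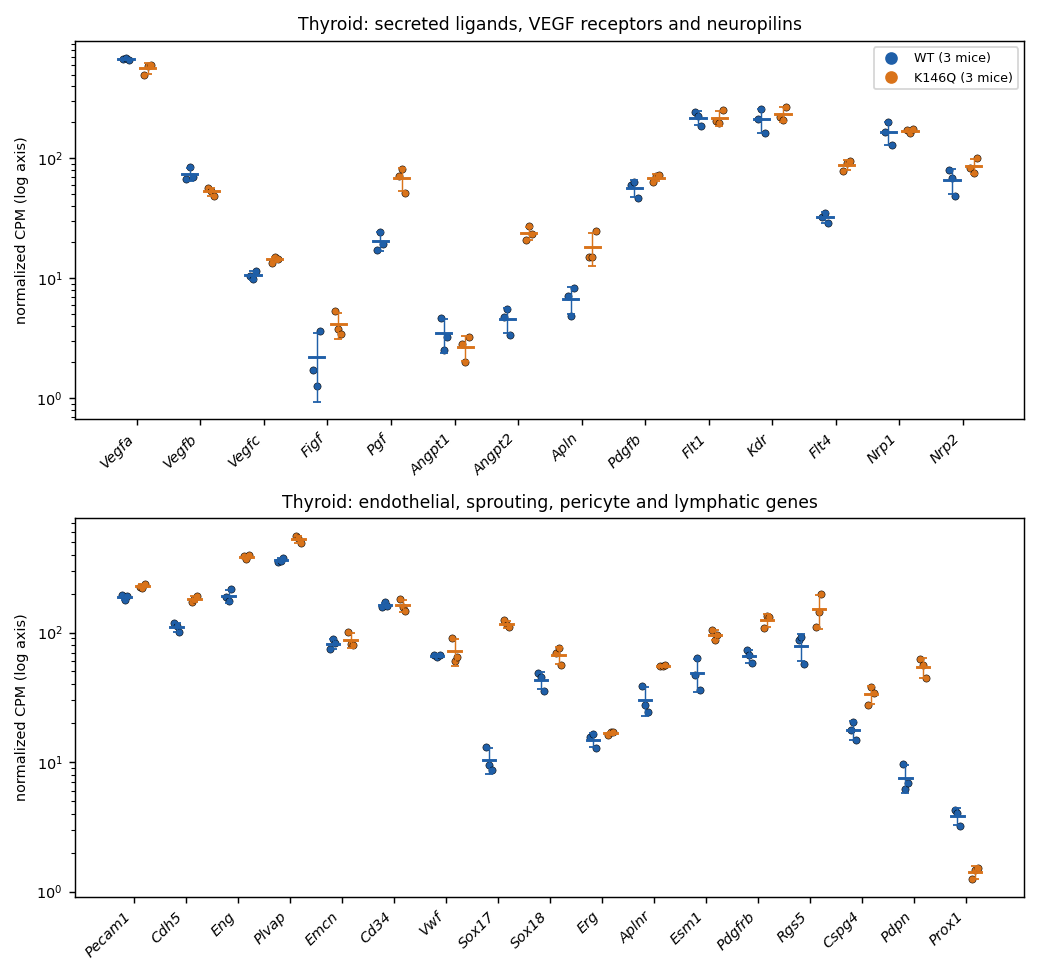
Normalized CPM (y axis, log scale) in the thyroid of each mouse, with horizontal lines for the mean and bars for the SD of 3 mice, WT in blue and K146Q in orange. Sox17, Pdpn, Angpt2, Pgf and Flt4 of the mutant lie far above the controls, Vegfa, Vegfb and Prox1 below them, and Flt1, Kdr, Cd34 and Emcn overlap.

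Of the 16 endothelial markers (the surface and secreted markers, the transcription factors, Tek and Tie1), 9 rose in the thyroid and none fell. Their summed level was 1499 to 1552 CPM in WT and 2136 to 2311 in K146Q mice, a ratio of means of 1.45. Eng (endoglin), a coreceptor for TGF-beta ligands on proliferating endothelium, rose from 187, 174 and 217 CPM to 391, 367 and 394 (log2 fold change 0.9987 ± 0.10 SE, adjusted p = 3.92e-04). The other surface markers that rose were Cdh5 (VE-cadherin), Egfl7, Robo4, Plvap, Esam and Pecam1, with log2 fold changes between 0.27 and 0.71. Plvap, which forms the diaphragms of fenestrae, had the highest level of them, 360.2 ± 12.9 CPM in WT and 526 ± 34.3 in K146Q mice. Pecam1, at 188 ± 8.36 and 227 ± 8.09 CPM, was the smallest of these rises (log2 fold change 0.27, adjusted p = 0.0285), and it failed when any of the 6 mice was left out (adjusted p 0.060 to 0.073). Emcn, Cd34 and Vwf overlapped between the genotypes, with log2 fold changes of 0.090, -0.012 and 0.091.

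Of the 4 endothelial transcription factors, 2 rose. Sox17, an SRY-box factor of arterial endothelium, was at 13.1, 9.43 and 8.66 CPM in the WT and 124, 114 and 111 in the K146Q thyroid, where the ratio of means was 11.2. Its log2 fold change of 3.44 ± 0.15 (SE, adjusted p = 1.39e-05) was the largest among the 42 genes in any tissue. Which cells of the bulk tissue carried the rise of Sox17 was not tested. Sox18, a factor of the same subfamily in vascular and lymphatic endothelium, rose from 43.2 ± 6.74 to 66.9 ± 9.86 CPM (log2 fold change 0.63, adjusted p = 0.0139), a call lost without K146Q mouse 62. The ETS factors Erg and Fli1, at 14.9 ± 1.80 and 14.7 ± 0.739 CPM in WT and 16.7 ± 0.448 and 17.7 ± 1.14 in K146Q mice, did not pass (adjusted p = 0.31 and 0.090).

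All 4 sprouting, Notch and apelin receptor genes rose in the thyroid. Esm1, a proteoglycan of tip cells, was at 46.7, 63.4 and 35.8 CPM in WT and at 104, 88.2 and 95.4 in K146Q mice (log2 fold change 1.01 ± 0.19 SE, adjusted p = 0.0053). Aplnr, the apelin receptor, went from 38.8, 27.5 and 24.5 to 54.8, 55.6 and 56.1 CPM (log2 fold change 0.89 ± 0.16 SE, adjusted p = 0.00415), and thus rose together with its ligand. The mutants differed by under 2 CPM from each other. The Notch ligand Dll4 and the endothelial receptor Notch4 rose by 0.77 and 0.72 on the log2 scale (adjusted p = 0.0112 and 8.30e-04).

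The 3 pericyte markers rose by nearly equal amounts. Pdgfrb, the receptor for Pdgfb on pericytes, was at 72.7, 67.3 and 57.9 CPM in WT and 108, 134 and 131 in K146Q mice (log2 fold change 0.91 ± 0.12 SE, adjusted p = 0.00113). Cspg4 (NG2) went from 17.7, 20.5 and 14.7 to 27.8, 37.9 and 34.2 CPM (log2 fold change 0.90 ± 0.16 SE, adjusted p = 0.00403). Rgs5, a regulator of G protein signaling in pericytes, went from 87.4, 91.9 and 57.4 to 109.8, 145 and 199 CPM (log2 fold change 0.92 ± 0.25 SE, adjusted p = 0.0216). It was the most scattered of the 3, and its rise failed without K146Q mouse 62 or 83 (log2 fold change 0.93 and 0.70).

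The lymphatic markers went in opposite directions. Pdpn (podoplanin), which lymphatic endothelium shares with several epithelia and fibroblasts, rose from 9.66, 6.201 and 6.92 CPM to 62.9, 55.8 and 44.2 (log2 fold change 2.77 ± 0.19 SE, adjusted p = 8.83e-05). Prox1, the transcription factor that specifies lymphatic endothelium, fell from 4.29, 4.05 and 3.19 CPM to 1.24, 1.47 and 1.52 (log2 fold change -1.18 ± 0.18 SE, adjusted p = 0.00219). Lyve1, a hyaluronan receptor of lymphatics and some macrophages, was at 5.57 to 10.3 CPM in WT and 9.38 to 17.9 in K146Q mice and narrowly missed the threshold (log2 fold change 0.83, adjusted p = 0.0511). It passed with edgeR and DESeq2 on the recovered reads, and in 2 of 6 limma fits with a mouse left out. Neither hypoxia-inducible factor was called, although Hif1a passed in 1 of 6 such fits (adjusted p = 0.04996). Hif1a was at 324 to 442 CPM in WT and 309.9 to 357 in K146Q mice, and Epas1 at 316 to 356 and 326 to 360.4 (log2 fold changes -0.22 and 0.0051, adjusted p = 0.25 and 0.97).

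Set against the summed level of the 16 endothelial markers, the ligands of the thyroid differed in direction. Vegfa amounted to 44.3%, 45.7% and 42.3% of the marker sum in the WT mice and to 21.5%, 27.0% and 28.2% in the K146Q mice, so that all mutants lay below all controls. Angpt2 went from 0.217 to 0.367% of the sum to 0.907 to 1.24%, Pgf from 1.14 to 1.63% to 2.42 to 3.72%, and Apln from 0.325 to 0.535% to 0.650 to 1.16%. Each of these ranges was apart between the genotypes. Angpt1 went from 0.169 to 0.306% to 0.0909 to 0.151%, likewise apart, and Pdgfb overlapped at 3.01 to 4.24% and 2.76 to 3.38%. Angpt1 itself overlapped between the genotypes, so the separation of its share came with the higher marker sum of the mutant. Part of the fall in the share of Vegfa likewise came from that sum. Most of the rise of the sum lay in Plvap, Eng and Sox17, while Emcn, Cd34 and Vwf overlapped. The sum is therefore not a measure of vessel amount. These ratios are sums over chosen genes and carry no test.

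Other vessel genes, listed by role, gave the setting in the thyroid. Over all genes tested, 19.7% were called higher and 18.1% lower, and counts near these shares are no result about a list. Of 25 further endothelial genes 16 rose and 2 fell. Among them the arterial gap junction gene Gja5 rose by 2.30 ± 0.24 on the log2 scale (SE, adjusted p = 3.94e-04), the water channel Aqp1 by 1.54 and Sox7, the remaining endothelial SRY-box factor of the Sox17 subfamily, by 1.48, whereas the capillary carbonic anhydrase Car4 fell by 2.102 (adjusted p = 4.29e-04). Of 11 further genes of pericytes and smooth muscle 6 rose and 2 fell, led by Anpep (log2 fold change -1.71), Higd1b (0.77), Ndufa4l2 (0.76) and Tagln (0.71). Among 16 targets of hypoxia-inducible factors 3 rose and 5 fell. Ndrg1 rose by 2.19, while the glycolytic and mitophagy genes Pdk1, Hk2 and Bnip3 had log2 fold changes of -1.34, -1.15 and -0.98. Of 16 inhibitors of angiogenesis 9 rose and 2 fell, with Cxcl10 at 2.61, Sema3a, a ligand of Nrp1, at 2.175 and Hhip at 1.61 against Tnmd at -2.24. Of 18 other angiogenic ligands tested 5 rose and 4 fell, led by the matricellular proteins Cyr61 (2.64) and Ctgf (2.56), with Angptl4 at -1.39 and Mdk at 1.31. Of 8 genes of the brain endothelial barrier tested 1 rose (Mfsd2a, 1.12) and 4 fell, led by the monocarboxylate carrier Slc16a1 (-1.86).

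Markers of other cells also moved with genotype in the thyroid libraries, where 37.8% of all genes tested were called. All 10 proliferation genes rose, from a sum of 64.1 to 96.7 CPM in WT to 229 to 288 in K146Q mice, and 5 of 6 leukocyte genes tested rose, from a sum of 93.7 to 133 to 245 to 249.6 CPM. All 6 adipocyte genes fell, from a sum of 402 to 467 to 55.6 to 112 CPM, and all 4 parathyroid genes fell, from 10195 to 19238 to 1670.3 to 4747 CPM. Skeletal muscle genes were not called (0 of 6) and varied widely, with sums of 354 to 6721 CPM in WT and 788 to 3813 in K146Q mice. None of 8 erythrocyte genes was called (sums 604 to 3258 and 364 to 695 CPM), 1 of 4 platelet genes rose, and of 6 fibroblast genes 2 collagens rose and 2 others fell. Of 9 follicular cell genes 4 rose and 2 fell, while their sum, most of it Tg, went from 299838 to 361522 CPM in WT to 90544 to 137993 in K146Q mice. Tg itself was not called by limma, although its level was lower in every K146Q mouse than in every WT mouse. The authors reported a significant fall of Tg RNA in the K146Q thyroid. The part of these lists in the rises and falls above was not tested.

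In the pituitary, 6 of the 42 genes were called, 4 higher and 2 lower, where 9.86% of all 15589 genes were called (6.36% higher and 3.5% lower). All 3 mutants lay above all 3 controls for 13 genes and below for 5, against 16.7% and 14.3% of all genes. Over all genes 991 were higher and 546 lower, which became 841 and 885 with totals without the 10 highest genes, and the 42 genes were again split into 4 and 2. The median log2 fold change of the 42 genes was 0.15. Without the filter on low values only Nrp2 and Flt4 passed.

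Angpt1 had the largest pituitary change. It fell from 79.7, 49.0 and 58.4 CPM in WT mice 1, 2 and 43 to 14.2, 18.8 and 29.1 in K146Q mice 60, 62 and 83 (log2 fold change -1.60 ± 0.24 SE, adjusted p = 0.00334), and the groups were well apart. Pgf, which rose in the thyroid, fell in the pituitary, from 4.58, 4.86 and 3.25 CPM to 2.32, 1.58 and 2.61 (log2 fold change -0.83 ± 0.21 SE, adjusted p = 0.0355). At this low level the call was lost without WT mouse 1 or 2 or K146Q mouse 60 or 62 (log2 fold change -0.88 to -0.66). Figf (Vegfd) rose from 23.1, 17.1 and 17.4 CPM to 31.9, 33.9 and 31.1 (log2 fold change 0.75 ± 0.12 SE, adjusted p = 0.00519).

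The other ligands of the pituitary did not pass. Vegfa was at 49.0, 62.9 and 46.4 CPM in WT and 48.1, 51.2 and 53.1 in K146Q mice, Vegfb at 20.2, 22.6 and 21.4 against 24.1, 25.2 and 24.0, and Vegfc at 24.2, 26.9 and 26.8 against 23.4, 25.5 and 32.2. The groups overlapped for Vegfa and Vegfc and were apart for Vegfb (log2 fold change 0.19, adjusted p = 0.22). Angpt2 was at 9.88, 14.1 and 9.63 against 14.6, 11.6 and 12.4 CPM (log2 fold change 0.21, adjusted p = 0.46). Apln stood at 27.4, 27.8 and 23.9 against 26.7, 25.3 and 29.6 CPM, and Pdgfb at 16.02, 17.2 and 15.1 against 17.6, 18.4 and 17.

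Among the receptors of the pituitary, Nrp2 rose from 55.3, 46.8 and 47.6 CPM to 90.8, 81.7 and 93.1 (log2 fold change 0.82 ± 0.090 SE, adjusted p = 6.03e-04). Flt4 rose from 27.1, 28.8 and 27.0 CPM to 45.4, 40.5 and 43.1 (log2 fold change 0.63 ± 0.083 SE, adjusted p = 0.0016), with very little scatter in the controls. The lymphangiogenic ligand Figf and its receptors Flt4 and Nrp2 were therefore called higher together, while their partner Vegfc was not. Flt1 was at 30.3 to 33.2 CPM in WT and 30.8 to 31.9 in K146Q mice, Kdr at 97.1 to 112 and 102 to 108, and Nrp1 at 54.6 to 57.0 and 51.5 to 53.5. None of these 3 passed (adjusted p = 0.98, 0.86 and 0.43).

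Of the 16 endothelial markers only Pecam1 was called in the pituitary, at 36.2, 34.7 and 37.4 CPM in WT and 53.9, 47.6 and 47.1 in K146Q mice (log2 fold change 0.45 ± 0.084 SE, adjusted p = 0.00998). It failed without K146Q mouse 60 (log2 fold change 0.39). The marker sum was 571 to 634 CPM in WT and 638 to 673 in K146Q mice, a ratio of 1.11, and 14 of the 16 log2 fold changes were above 0. Set against this sum, Angpt1 amounted to 14.0%, 7.73% and 10.2% in the WT and 2.15%, 2.79% and 4.565% in the K146Q mice, and Pgf to 0.568 to 0.803% and 0.235 to 0.409%, both apart between the genotypes. Vegfa amounted to 8.11 to 9.92% and 7.28 to 8.32%, with overlap. No hypoxia-inducible factor, pericyte, lymphatic or sprouting gene was called. With a mouse left out, the pericyte gene Rgs5 and the endothelial markers Egfl7 and Fli1 each passed in 1 of 6 fits. In the further lists, 1 of 10 genes of pericytes and smooth muscle and 1 of 16 other angiogenic ligands fell. Of 15 targets of hypoxia-inducible factors 2 rose, and of 15 inhibitors of angiogenesis 1 rose. None of 9 brain endothelial barrier genes was called. Over all genes 6.36% were called higher and 3.5% lower. Of 23 further endothelial genes tested 5 rose, among them Ackr1, a chemokine receptor of venules (log2 fold change 1.34), the tight junction gene Cldn5 (0.95), the scavenger receptor Stab1 (0.57) and Cd93 (0.46). Leukocyte genes moved with them, 4 of 6 tested being higher, with sums of 48.7 to 55.3 CPM in WT and 78.3 to 119 in K146Q mice. Of 5 neuronal genes 2 rose and 1 fell, with sums of 537 to 597 and 773 to 838 CPM. Of 6 somatotroph, lactotroph and thyrotroph genes 2 rose (Tshb and Cga) and 2 fell (Prl and Ghrhr), with sums of 120974 to 248569 and 98526 to 108750 CPM. Of 3 genes tested from the parathyroid list 2 rose, Casr and Chga, with sums of 1013 to 1140 and 1321 to 2068 CPM. In the fibroblast list and in the folliculostellate and pituicyte list 1 gene each fell. Nothing was called among proliferation (0 of 10), erythrocyte, platelet, adipocyte, muscle and follicular cell genes. The part of these lists in the pituitary changes was not tested.

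The ratio of the angiopoietins was higher in the mutant in both glands, with no overlap between the genotypes. The Angpt2 to Angpt1 ratio was 1.03, 2.18 and 1.04 in the WT and 7.42, 13.6 and 7.27 in the K146Q thyroid, where Angpt2 had risen. It was 0.124, 0.287 and 0.165 in the WT and 1.03, 0.620 and 0.427 in the K146Q pituitary, where Angpt1 had fallen. In the hypothalamus it was 0.359 to 0.5 and 0.423 to 0.527, with overlap.

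**Figure D3:**
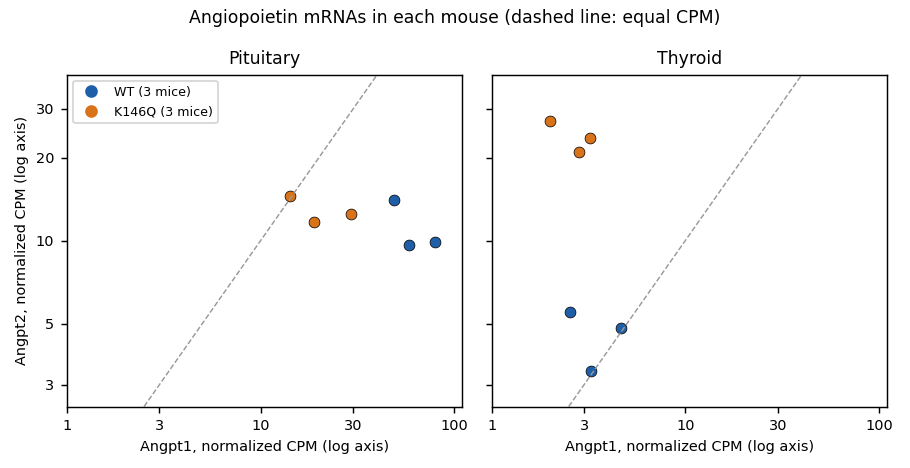
Angpt1 (x axis) against Angpt2 (y axis), both in normalized CPM on log scales, in the pituitary and thyroid of each mouse, WT in blue and K146Q in orange, with a dashed line where both are equal. The mutant pituitaries lie to the left of the controls (Angpt1 14.2 to 29.1 against 49.0 to 79.7 CPM) and the mutant thyroids above them (Angpt2 20.97 to 27.2 against 3.37 to 5.505 CPM).

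In the hypothalamus, none of the 40 genes tested was called by limma, where 0% of all 15761 genes were. Aplnr and Lyve1, at no more than 0.578 CPM in any library, were left out by the filter. At an unadjusted p under 0.05 there were 6 of the 40, namely Nrp1, Cd34, Rgs5 and Cspg4 higher and Apln and Notch4 lower, and 645 of all genes. By edgeR 0 of the 40 and 0 of all genes passed, and by DESeq2 0 and 9. All 3 mutants lay above all 3 controls for 6 of the 42 genes and below them for 5, against 4.2% and 4.95% of all genes. The fitted log2 fold changes ran from -0.31 (Figf) to 0.22 (Nrp1), with a median of 0.023. Angpt1, which fell in the pituitary, was at 8.65 to 8.90 CPM in WT and 7.48 to 9.42 in K146Q mice, and Sox17, which rose in the thyroid, at 7.57 to 9.17 and 7.05 to 10.1.

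The difference between the glands was tested directly, as the genotype effect in the thyroid minus that in the pituitary in a joint fit of all 18 libraries. It was called for 18 of the 42 genes, 16 higher and 2 lower, where 33.8% of all 17140 genes were called (16.4% higher and 17.4% lower). Of the 24 genes called in the thyroid, 17 differed from the pituitary in this test. The 24 were picked by their effect in the same thyroid libraries, which favors a difference. The matching share among all genes called in the thyroid was not computed. With 1 mouse left out in turn, the difference was called in 1 of 6 fits for Robo4 (0.31 to 0.41), in 4 for Esam (0.41 to 0.55) and in 5 for Notch4 (0.41 to 0.63). It was lost for Robo4 without any K146Q mouse or WT mouse 2 or 43, for Esam without K146Q mouse 60 or 83 and for Notch4 without K146Q mouse 62. The largest differences were those of Sox17 (3.47 ± 0.21 SE on the log2 scale, adjusted p = 3.92e-09), Pdpn (2.60), Pgf (2.53) and Angpt2 (2.08). For Pgf the thyroid and pituitary effects had opposite signs and were each called. For Angpt1 the positive difference of 1.29 ± 0.34 (SE, adjusted p = 0.00759) came with a fall in the pituitary and a log2 fold change of -0.31 in the thyroid that did not pass, and it was not called without K146Q mouse 60 (1.02, adjusted p = 0.052). Vegfb and Prox1 were the 2 genes with a lower effect in the thyroid, by -0.67 and -1.34. Called in both glands were 3 genes, Pgf, Flt4 and Pecam1. The share of all genes called in both was not computed, so the count of 3 is no result about these genes. With 1 mouse left out in turn, the pituitary call of Pgf held in 2 of 6 fits and the thyroid call of Pecam1 in 0 of 6. Flt4 was called in all 6 fits of each gland. Flt4 rose more in the thyroid (difference 0.81 ± 0.19 SE, adjusted p = 0.00375), and for Pecam1 and Nrp2 no difference was called. Aplnr, Dll4, Egfl7, Pecam1, Rgs5, Sox18 and Vegfc, called in the thyroid, were not shown to differ from the pituitary. With mouse number as a block the difference of Rgs5 was called, which made 19 genes.

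The levels of the same genes in the WT mice set the 3 tissues apart. Between WT thyroid and WT pituitary 38 of the 42 genes were called, 31 higher in the thyroid and 7 lower, against 75.6% of all genes (37% higher and 38.6% lower). Between WT pituitary and hypothalamus 35 were called, 27 higher in the pituitary and 8 lower, against 73% of all genes (37% and 35.9%), and between WT thyroid and hypothalamus 38, 33 higher in the thyroid and 5 lower, against 81.9% of all genes (41.9% and 40%). Library totals without the 10 highest genes moved the median of all genes from -0.027 to -0.28 for thyroid against pituitary and from 0.015 to 0.26 for pituitary against hypothalamus, and the splits of all genes from 6341 higher and 6611 lower to 4845 and 8477 and from 6348 and 6160 to 8217 and 4813. The 42 genes were then split into 28 and 7 and into 29 and 8.

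The largest steps up from the hypothalamus to the glands were those of Esm1, Aplnr and Plvap. Plvap was at 10.8 ± 0.125 CPM in the WT hypothalamus, 235 ± 26.2 in the pituitary and 360.2 ± 12.9 in the thyroid, and each step passed (log2 difference 4.37 for pituitary against hypothalamus, adjusted p = 3.76e-16). Esm1 was at 0.764 ± 0.325, 46.5 ± 8.37 and 48.6 ± 13.9 CPM, where no difference between the glands was called (adjusted p = 0.87), and Aplnr at 0.369 ± 0.184, 20.6 ± 2.37 and 30.3 ± 7.52. The log2 difference between thyroid and hypothalamus was 5.27 for Esm1 and 5.14 for Aplnr. Kdr and Emcn followed the same order, from 15.2 and 4.73 CPM in the hypothalamus to 102 and 27.8 in the pituitary and 211 and 81.9 in the thyroid. All 10 genes of the brain endothelial barrier were called in the pituitary against the hypothalamus, 8 lower and 2 higher, where 35.9% of all genes were lower. The split was again 8 lower and 2 higher in the thyroid against the hypothalamus, where 40% of all genes were lower.

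The ligands followed other orders. Vegfa was at 92.0 ± 7.27 CPM in the WT hypothalamus, 52.8 ± 8.89 in the pituitary and 673 ± 15.2 in the thyroid, a log2 difference of 3.67 between thyroid and pituitary (adjusted p = 5e-15). Angpt1 was highest in the pituitary, at 62.4 ± 15.7 CPM against 8.79 ± 0.127 in the hypothalamus and 3.48 ± 1.09 in the thyroid, and Figf likewise, at 19.2 ± 3.41 against 1.15 ± 0.0882 and 2.21 ± 1.28. Vegfc was lower in the thyroid than in the pituitary by 1.25 on the log2 scale, with levels of 10.6 ± 0.870 and 26.0 ± 1.53 CPM. No difference of Vegfb was called between hypothalamus and thyroid (73.5 ± 0.576 and 74.2 ± 9.40 CPM), and the pituitary level was lower at 21.4 ± 1.197. Prox1, which neurons and endocrine cells also express, was at 38.7 ± 3.92, 55.4 ± 5.83 and 3.84 ± 0.581 CPM in hypothalamus, pituitary and thyroid. Sox17, at 8.38 ± 0.799, 1.64 ± 0.190 and 10.4 ± 2.39 CPM, was lower in the pituitary than in both other tissues, between which no difference was called (adjusted p = 0.096). Among the markers with the largest steps from pituitary to thyroid were Vwf, Cd34, Lyve1, Flt1 and Pecam1, with log2 differences of 3.61, 3.29, 2.805, 2.77 and 2.36.

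**Figure D4:**
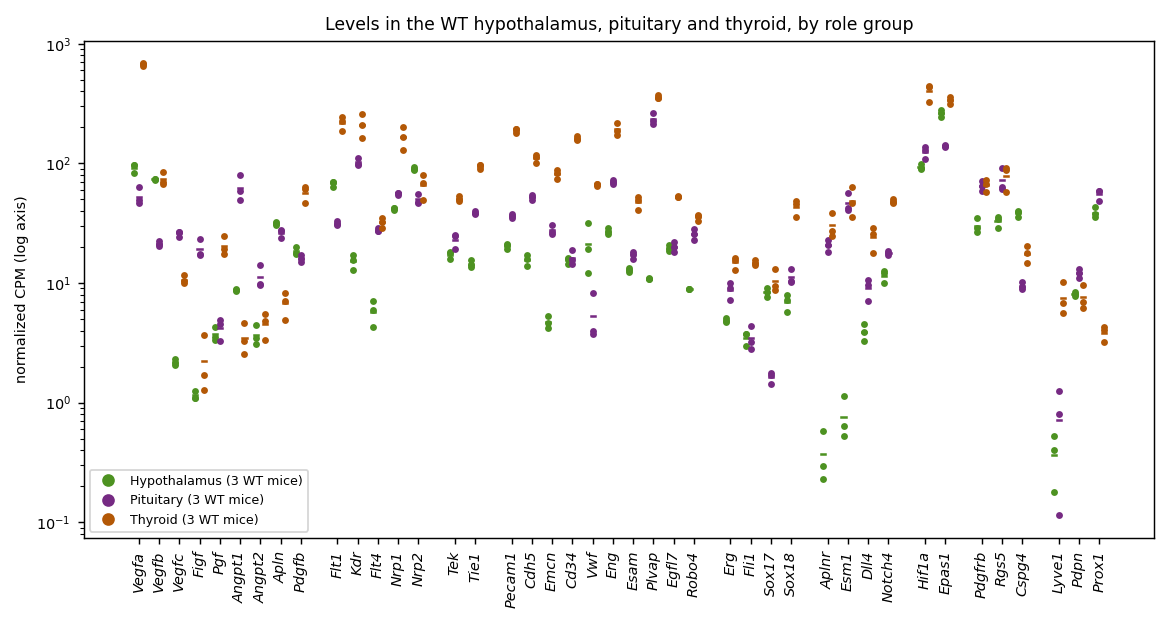
Normalized CPM (y axis, log scale) of the 42 genes (x axis, by role) in the hypothalamus, pituitary and thyroid of 3 WT mice, with a point for each mouse and a line for each mean. Plvap, Esm1 and Aplnr are lowest in the hypothalamus, Angpt1 and Figf highest in the pituitary, and Vegfa, Flt1 and Cd34 highest in the thyroid.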

How the data were processed

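The material was RNA-Seq of 3 tissues from 6 mice, as read from the numbers in the sample titles, and grouped by title into WT and K146Q. The authors deposited, per tissue and per library, a normalized signal in CPM for 24054 genes, together with the results of their own comparison, namely log2 fold changes and mean log2 values, a likelihood ratio score, p-values and FDR. None of these columns was used for a result. The submitters' processing notes name bcl2fastq (2.17), Bowtie2 (2.1.0), RSEM (1.2.15) and the build mm10. The annotation, and whether counting used strand, are not given in the sources used here, so reads of overlapping or antisense genes cannot be told apart. The authors' mean log2 value was equal across the tables for all 24027 symbols that occur once in each, from which 1 joint normalization was inferred. Values were whole multiples of 1 read (within 0.01) for 100% of those in hypothalamus and thyroid and 99.999% in pituitary. No pair of replicates was so alike that it could be 1 library deposited again, since the chi-square per degree of freedom was at least 6.11.

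A gene was tested where 3 or more libraries reached 0.5 CPM, by limma (3.58.1, R 4.3.3) with a variance trend on log2(CPM + 0.5), each tissue alone, with Benjamini-Hochberg adjustment over all genes. A joint fit of 18 libraries with 6 group means gave the difference between glands and the WT tissue contrasts. A single gene's exact permutation test of 3 mice against 3 cannot go below p = 0.1, so none is given. Alternatives were pseudocounts of 0.1 and 1, no filter, a floor of 1 CPM in every library, other normalizations (quantile, median of ratios, totals without the 10 highest genes), no trend, each mouse left out, edgeR (4.0.16) and DESeq2 (1.42.0) on recovered reads, and mouse number as a block. The labels give 3 numbers per genotype, the same in each tissue. A number was taken to mark 1 mouse, which the labels do not state, and it pairs libraries across tissues only. Deviations from the group means of same-numbered libraries correlated between -0.038 and 0.23. Libraries of different numbers were not compared in this way, so these values do not test the pairing. The fits were tested on simulated data with 200 known changes, placed in genes with ample reads. All genes and tissues were given the same spread. Of the 2-fold changes, 97% were recovered in thyroid, 100% in pituitary, 97% in hypothalamus and 59% in the joint fit. All 4-fold changes were recovered. The calls that were false made up 5.74%, 6.54%, 2.475% and 5.92%. These figures hold for that setting only.

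The members and lists were chosen with earlier results of these data known. Values per mouse were given for genes called without overlap of the genotypes at a mean level from 1 CPM, up to 12 per direction and tissue, and for all secreted ligands and VEGF receptors in thyroid and pituitary. Other lists were represented by up to 4 called genes of largest change, and the WT tissue contrasts by up to 6 members per direction. Exon lengths were taken from GENCODE M21 (GRCm38).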

Additional observations from a re-analysis of the deposited data

Results flagged for a closer look

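For 18 genes the difference between genotypes was not the same in the thyroid and the pituitary, by the test of the thyroid effect minus the pituitary effect in the joint limma fit. On the log2 scale this difference was 3.47 for Sox17, 2.60 for Pdpn, 2.53 for Pgf, 2.08 for Angpt2, 1.31 for Apln, 1.298 for Esm1 and 1.29 for Angpt1. It was 0.99 for Pdgfrb, 0.95 for Eng, 0.89 for Cspg4, 0.81 for Flt4, 0.50 for Notch4, 0.48 for Cdh5, 0.48 for Plvap, 0.47 for Esam and 0.37 for Robo4. The effect was lower in the thyroid for Vegfb (-0.67) and Prox1 (-1.34). No explanation of these differences was tested.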

How the results depend on the processing

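Of 108 recomputed counts of called genes, 107 stayed within 1.5 times the reported one. The exception was the pituitary without the filter on low values, where 2 genes were called in place of 6 while all 24054 genes were tested. Under the alternatives the count was 20 to 26 in the thyroid, 2 to 7 in the pituitary, 0 in the hypothalamus and 16 to 19 for the difference between glands. With mouse number as a replicate block, the difference between glands was called for 19 genes in place of 18, adding Rgs5, and the WT tissue counts were again 38, 35 and 38, and no other call changed. Of the values for named genes, 1350 kept direction and side of the threshold, 32 fell short of it, 4 passed it (thyroid Vegfa under 2 normalizations, Figf without WT mouse 43 and Nrp2 without WT mouse 1) and 24 changed sign, all of the last for genes near 0 that were not called. Flt1 in the thyroid was at 0.00809 with DESeq2, 0.00433 with edgeR and 0.00949 with median-of-ratios rescaling, and from -0.12 to 0.075 with a mouse left out. Thyroid Nrp1 was at -0.026 with quantile normalization and -0.0402 with totals without the 10 highest genes, and from -0.11 to 0.21 with a mouse left out, and thyroid Kdr from -0.0073 to 0.33. In the pituitary, totals without the 10 highest genes gave -0.011 for Vegfc, -0.010 for Apln and -0.030 for Kdr, and leaving out a mouse gave -0.085 to 0.14 for Vegfc, -0.022 to 0.095 for Apln, -0.010 to 0.091 for Kdr, -0.034 to 0.031 for Flt1 and -0.13 to 0.08995 for Vegfa. The difference between glands failed for Robo4 in 5 of 6 fits with a mouse left out, for Esam without K146Q mouse 60 or 83, for Angpt1 without mouse 60 and for Notch4 without mouse 62. Read depth limits genes under a few CPM, such as Figf in the thyroid and Pgf in the pituitary.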
